A study of Homo sapiens with 4 samples.

Results

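NXF1, NXT1 and the genes of the TREX complex encode the machinery that carries mRNA out of the nucleus. Their own transcripts were examined in nuclear RNA of MDA-MB-231 cells, a triple negative breast cancer cell line, by RNA immunoprecipitation sequencing (RIP-seq) of YTHDC1. Every transcript listed under the gene names NXF1, NXT1, ALYREF, DDX39B, THOC1, THOC2, THOC3, THOC5, THOC6 or THOC7 was kept, which gave 67 transcripts of 10 genes among 75165 transcripts of 20298 genes.

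mRNA leaves the nucleus bound to the heterodimer of NXF1 and NXT1, which passes through the nuclear pore. TREX (transcription-export complex) couples this step to transcription and splicing. Its core is the THO complex, a scaffold of THOC subunits that holds the RNA helicase DDX39B, also known as UAP56, and DDX39B in turn loads the adaptor ALYREF, which hands the RNA to NXF1. YTHDC1 is the nuclear reader of N6-methyladenosine in RNA and is known to promote export of methylated mRNA with the splicing factor SRSF3 and with NXF1.

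The study set RNA recovered with YTHDC1 beside the RNA of the starting lysate. Cells of all 4 libraries were transduced with 3x flag-YTHDC1 at a multiplicity of infection of 4 then kept for 4 days in puromycin at 2 μg/ml, so the cells of every library expressed the tagged protein. After UV crosslinking, nuclei were isolated and sonicated, and 2 libraries were made from anti-Flag immunoprecipitates (IP) and 2 from input lysate. Libraries of untagged cells or of control IgG precipitates were not analysed here.

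The deposited table gives 1 abundance per transcript, the authors' mean normalized count over all 4 libraries. It gives no abundance for a single library, so the IP and input libraries could not be told apart in any value below, no spread between replicates could be computed, and no test was made. Sequencing depth per library is likewise unknown. The values describe RNA of the nuclear lysate and of the IP in 1 figure. Fewer cells with a transcript and less of it per cell cannot be told apart in such bulk samples.

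The cell line label was checked against marker genes. All 6 genes used as markers of the line (VIM, CD44, KRT18, AXL, CAV1 and PLAU) were listed, with summed mean normalized counts from 7624 for CAV1 to 80785 for VIM. The hormone receptor genes ESR1 and PGR and the liver gene ALB were not listed. The epithelial genes CDH1 and EPCAM were listed at 10.0 and 78.3, and the leukocyte gene PTPRC at 3.81. The nuclear RNAs MALAT1 and NEAT1 were listed at 45810 and 4322.

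Each transcript carries an annotated type. A protein-coding transcript has an annotated coding sequence, which may be incomplete. A nonsense-mediated-decay transcript has a reading frame that ends early, a retained-intron transcript keeps intron sequence beside its exons, and a processed transcript has no annotated reading frame. In nuclear RNA, intron reads of transcripts not yet spliced can be counted for a retained-intron transcript, and these values cannot tell them apart. All types other than protein-coding are grouped below as non-coding types. For the 10 genes these are the last 3, and further types made up 0.129% of the transcripts of all protein-coding genes. A share of reads is a transcript's mean normalized count as a percentage of the sum over its gene. It is a share of reads and not of molecules, since long transcripts collect more reads, and for the same reason no order of levels between genes is given.

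Of the 67 transcripts, 39 were protein-coding, 13 retained-intron, 8 processed and 7 nonsense-mediated-decay transcripts. Non-coding types made up 41.8% of the transcripts of the export genes, against 40.4% of the 65841 transcripts of all 14050 protein-coding genes. In reads, non-coding types held 15.5% of the export genes' summed mean normalized count of 19971, against 12.4% over all protein-coding genes. DDX39B alone gave 68.9% of the export genes' non-coding reads, and without it the share was 7.49%.

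Of the 28 non-coding transcripts, 10 had a mean normalized count below 10 and 8 reached 100. Of the 39 protein-coding transcripts, 1 was below 10 and 25 reached 100. The plot of all transcripts by gene shows a protein-coding transcript at the upper end of every gene. In DDX39B, THOC1 and THOC3 a single non-coding transcript held over 10% of the gene.

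**Figure D1:**
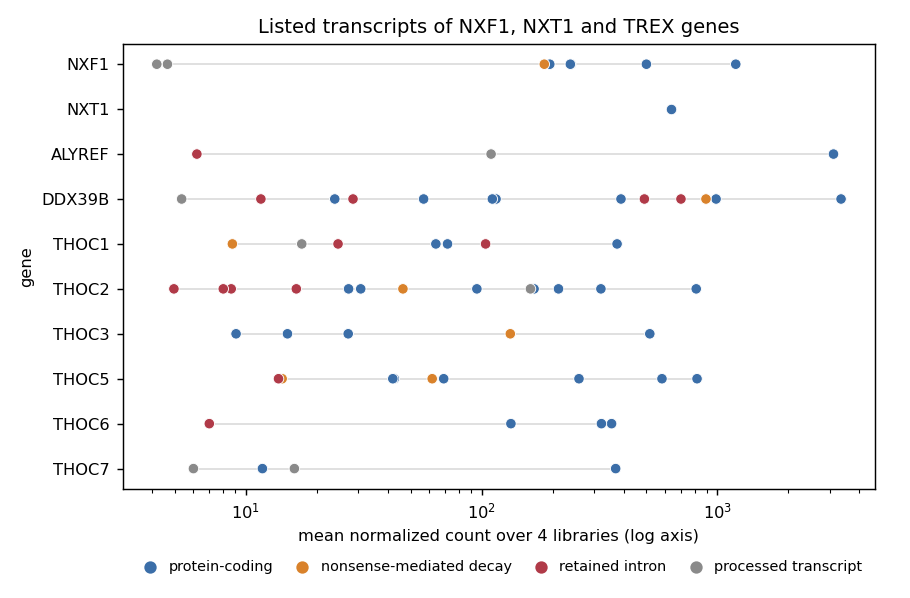
Mean normalized count over the 4 libraries (x axis, log scale, no unit) of each of the 67 listed transcripts, by gene (y axis), with 1 point per transcript coloured by annotated type. Each gene's rightmost point is a protein-coding transcript, and the points below 10 are mostly retained-intron and processed transcripts.

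NXF1, the export receptor itself, had 8 listed transcripts. The gene lies on chromosome 11, 62792130 to 62805440, minus strand (all gene positions are those of RefSeq on GRCh38.p14). The leading transcript, the protein-coding NXF1-201, had a mean normalized count of 1195, which was 46.7% of the gene's 2560. The protein-coding NXF1-211 followed at 499.7 (19.5%) and NXF1-217 at 239 (9.35%), so that the 3 together held 75.6%. The protein-coding NXF1-206 was nearly level with NXF1-217, at 238 (9.29%), and their order was not resolved without replicate values.

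Among the non-coding transcripts of NXF1, 1 held at least 5% of the gene. NXF1-202, of the nonsense-mediated-decay type, had 184, or 7.20%. NXF1 is known for an intron kept in part of its mRNA, which is exported with the help of a constitutive transport element in that intron. No NXF1 transcript of the retained-intron type was listed, but a transcript that keeps this intron can be annotated under another type, protein-coding included, so its presence or absence cannot be read from the type. The 2 processed transcripts of NXF1, NXF1-214 and NXF1-210, were at 4.66 and 4.20. The leading share of 46.7% was close to the median of 46.0% over the 628 protein-coding genes that also had 8 listed transcripts.

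NXT1, the small partner of NXF1 in the heterodimer, lies on chromosome 20, 23350791 to 23354771, plus strand. It had a single listed transcript, NXT1-201, with a mean normalized count of 637. A single listed transcript was found for 2568 protein-coding genes, and NXT1 was the only one of the 10 export genes with 1.

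ALYREF, the adaptor that links TREX to NXF1, was made up almost wholly of 1 transcript. The gene lies on chromosome 17, 81887835 to 81891587, minus strand. The protein-coding ALYREF-202 had 3103, or 96.4% of the gene's reads. The processed transcript ALYREF-204 had 110 (3.41%) and the retained-intron transcript ALYREF-203 had 6.21 (0.193%). Among the 1902 protein-coding genes with 3 listed transcripts the median leading share was 67.3%, and 94.6% of them had a lower share than ALYREF.

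DDX39B, the helicase of TREX, was spread over many transcripts. It lies on chromosome 6, 31530226 to 31542003, minus strand, and had 13 listed transcripts with a summed mean normalized count of 7153. The protein-coding DDX39B-201 led with 3341 (46.7%), followed by the protein-coding DDX39B-211 with 986 (13.8%). The next was the nonsense-mediated-decay transcript DDX39B-221 with 894 (12.5%).

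Retained-intron transcripts of DDX39B came next. DDX39B-215 had 700.1 (9.79%) and DDX39B-219 had 489.9 (6.85%), each above every protein-coding transcript of the gene other than DDX39B-201 and DDX39B-211. The 4 retained-intron transcripts together held 17.2% of the gene, against a median of 3.34% over the 152 protein-coding genes with 13 listed transcripts, of which 84.2% had a lower share. Non-coding types held 29.8% of DDX39B, against a median of 15.3%, with 65.8% of those genes lower. DDX39B supplied 86.4% of all retained-intron reads of the 10 export genes.

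THOC1, a core subunit of THO, lies on chromosome 18, 214520 to 268047, minus strand. It had 7 transcripts and a summed mean normalized count of 666. The protein-coding THOC1-221 had 375 (56.4%). The second was the retained-intron transcript THOC1-202 with 104 (15.6%), ahead of the protein-coding THOC1-201 with 71.7 (10.8%).

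With a further retained-intron transcript, THOC1-215 at 24.6, the type held 19.3% of THOC1, the highest share among the 10 export genes. The median over the 875 protein-coding genes with 7 listed transcripts was 1.65%, and 87.2% of them had a lower share. All non-coding types together held 23.2% of THOC1, against a median of 14.7% for those genes.

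THOC2, the large scaffold subunit of THO, lies on chromosome X, 123600569 to 123733052, minus strand. It had 13 transcripts and a sum of 1911. The protein-coding THOC2-216 led with 813 (42.5%), followed by the protein-coding THOC2-201 with 320.5 (16.8%) and THOC2-220 with 212 (11.1%). The processed transcript THOC2-219 had 161 (8.43%). THOC2 had as many retained-intron transcripts as DDX39B, 4, but these held only 1.99% of its reads, with mean normalized counts from 4.96 to 16.4.

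THOC3, a WD-repeat subunit of THO, had 5 listed transcripts and a sum of 700.1. It lies on chromosome 5, 175959531 to 175968315, minus strand. The protein-coding THOC3-201 had 516 (73.8%). The nonsense-mediated-decay transcript THOC3-206 had 132 (18.9%), and the protein-coding THOC3-210 had 27.2 (3.88%). The decay share of 18.9% was the highest among the export genes and stood above that of 84.8% of the 1417 protein-coding genes with 5 listed transcripts, whose upper quartile was 5.70%.

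The THOC3 values are uncertain because of a copy of the gene. Copies of the other export genes were not looked for. A pseudogene described as one of THO complex 3, AC106795.1, stood outside the gene lists and was picked with its values in view. It had 3 listed transcripts with a sum of 388, of which AC106795.1-205 had 325. The pseudogene held 35.7% of the reads of both loci together. If all of its reads belonged to THOC3 but none to THOC3-201, the share of THOC3-201 would be 47.4%. Any of them that belonged to THOC3-201 would make that share higher. RSEM, the program the authors used, divides reads common to several transcripts by a statistical estimate, and how well it separated these loci cannot be seen in the mean values.

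THOC5, a THO subunit that also binds NXF1, had 9 transcripts and a sum of 1903, on chromosome 22, 29505879 to 29553757, minus strand. Its 3 leading transcripts were all protein-coding, THOC5-204 at 819 (43.0%), THOC5-202 at 582 (30.6%) and THOC5-216 at 259 (13.6%). Non-coding types held 4.72%, against a median of 14.1% over the 442 protein-coding genes with 9 listed transcripts, of which 26.0% were lower.

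THOC6, a WD-repeat subunit of THO, was split between coding transcripts. It lies on chromosome 16, 3024035 to 3027750, plus strand, and had 4 transcripts with a sum of 818. THOC6-202 had 356 (43.5%), THOC6-207 had 322 (39.4%) and THOC6-201 had 133 (16.3%), and the first exceeded the second by a ratio of 1.10. Since the transcripts of a gene share many reads, which RSEM divides by estimate, the order of these transcripts was not resolved without replicate values. Its only non-coding transcript, the retained-intron THOC6-208, had 7.01 (0.857%).

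THOC7, a coiled-coil subunit of THO, also had 4 transcripts but most of its reads in 1 of them. It lies on chromosome 3, 63833870 to 63864484. The protein-coding THOC7-201 had 370.1 of a sum of 404, or 91.6%, a share above that of 92.7% of the 1640 protein-coding genes with 4 listed transcripts. For THOC6 the same figure was 15.1%. The processed transcript THOC7-207 had 16.1 (3.98%) and the protein-coding THOC7-204 had 11.8 (2.91%).

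**Figure D2:**
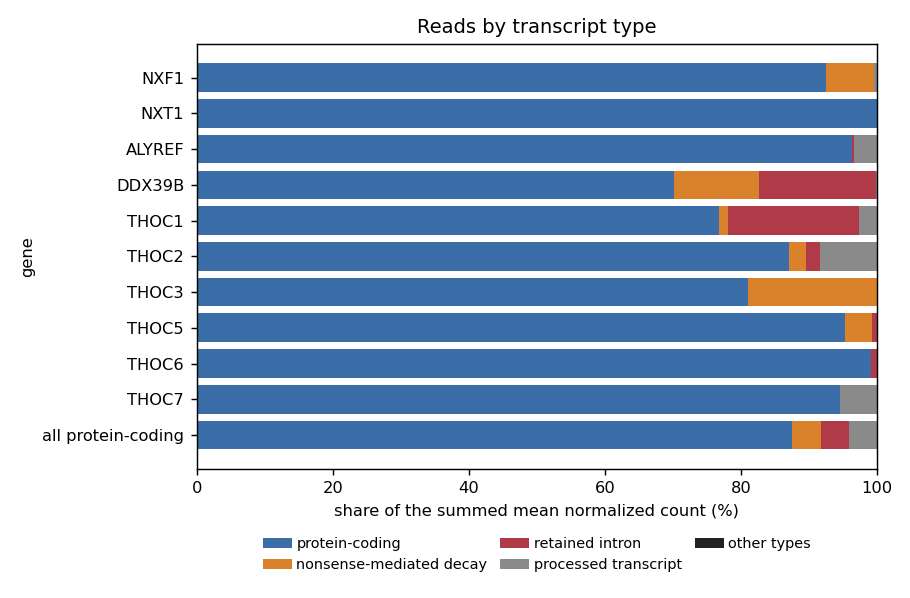
Share of each gene's summed mean normalized count (x axis, %) held by transcripts of each annotated type, for the 10 export genes and for all 14050 protein-coding genes together (y axis). The non-coding part is widest in DDX39B (29.8%) and THOC1 (23.2%), and it is 0.857% in THOC6 and 0 in NXT1.

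Across the 10 genes, the leading transcript was protein-coding in each, as in 87.1% of all protein-coding genes. The median leading share was 51.5%, below the 66.7% of all protein-coding genes, and the export genes also had more listed transcripts, with a median of 6 against 4. Set beside genes with as many transcripts, 6 of the 9 export genes with more than 1 transcript (NXF1, ALYREF, DDX39B, THOC1, THOC3 and THOC7) were above the median leading share and THOC2, THOC5 and THOC6 below it. ALYREF, THOC3 and THOC7 were above the upper quartile, and THOC6 was below the lower one. If all reads of AC106795.1 belonged to THOC3 but none to its leading transcript, the THOC3 share would be 47.4%. That is below the median of 56.5% over genes with 5 listed transcripts, a number that leaves out the transcripts of AC106795.1. Any of these reads that belonged to the leading transcript would make the share higher, so the place of THOC3 was not resolved.

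**Figure D3:**
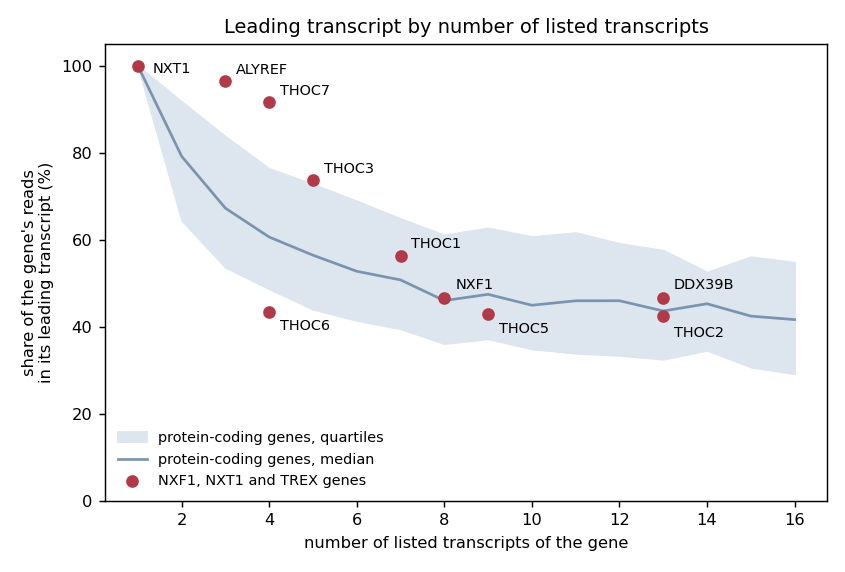
Share of the gene's reads in its leading transcript (y axis, %) against the number of listed transcripts of the gene (x axis), for the 10 export genes (points) and for all protein-coding genes with the same number (line, median; band, quartiles). ALYREF (96.4%) and THOC7 (91.6%) lie above the band, THOC3 (73.8%) just above it and THOC6 (43.5%) below it. The THOC3 share would be 47.4% if all reads of its pseudogene belonged to THOC3 but none to its leading transcript. Any that belonged to the leading transcript would make the share higher.

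Retained-intron transcripts were listed for 6 of the 10 genes (ALYREF, DDX39B, THOC1, THOC2, THOC5 and THOC6), against 38.2% of all protein-coding genes. Their share of the reads was 7.13%, against 4.16%, and without DDX39B it was 1.51%. Nonsense-mediated-decay transcripts were listed for 6 genes as well (NXF1, DDX39B, THOC1, THOC2, THOC3 and THOC5), against 30.1%. Their share was 6.72%, against 4.22%, and 3.49% without DDX39B. Processed transcripts held 1.62%, against 4.02%. These counts were not tested, and the 10 genes had more listed transcripts than the median protein-coding gene.

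Genes with over 10% of their reads in non-coding types numbered 4 of 10 (DDX39B, THOC1, THOC2 and THOC3), against 42.0% of all protein-coding genes. Set beside genes with as many listed transcripts, DDX39B, THOC1 and THOC3 were above the median non-coding share. NXF1, ALYREF, THOC2, THOC5, THOC6 and THOC7 were below it. The place of THOC3 does not allow for the reads of AC106795.1. The 6 THO subunits taken alone had 10.2% of their reads in non-coding types, with a median of 9.16% per gene.

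Other export factors were taken from a list of 31 genes, of which 27 were listed with 163 transcripts. NXF2, NXF2B, NXF5 and LUZP4 were not listed, and the NXF1 and NXT1 relatives NXF3 and NXT2 were listed with 1 transcript each at 15.7 and 3.13. The leading transcript was protein-coding in 26 of the 27 genes. The exception was CETN3, a centrin of the TREX-2 complex, whose decay transcript CETN3-202 held 41.2% of a sum of 58.4. The median share in non-coding types was 13.2% over these genes and 6.51% over NXF1, NXT1 and the TREX genes. The same median over all protein-coding genes was 5.42%. Of the 27 genes, 17 were over 10%, against 42.0% of all protein-coding genes. These differences were not tested, nor were they matched for the number of listed transcripts. The median number was 5 over the 27 genes, 6 over NXF1, NXT1 and the TREX genes and 4 over all protein-coding genes.

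DDX39A, the close paralogue of DDX39B, also had decay and retained-intron transcripts. It had 16 listed transcripts, of which DDX39A-201 (protein-coding) held 61.6% and the decay transcript DDX39A-202 held 26.2%, with a mean normalized count of 1468. Decay transcripts together held 30.0% and retained-intron transcripts 7.69% of DDX39A, against 12.5% and 17.2% of DDX39B. Reads common to these paralogues could have been divided between them.

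Among the TREX-associated factors, non-coding shares ran from 0 for ERH to 46.1% for NCBP3, a cap-binding protein, in which the decay transcript NCBP3-204 held 35.6%. Among genes acting at the pore, NUP153 had none and TPR 0.715%, whereas NUP42 had 61.3% of a sum of 194. The TREX-2 subunit ENY2 had 42.3%, of which the processed transcript ENY2-204 held 28.9%. The export genes named above, from 0 to 29.8%, lay within this range.

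SRSF1, SRSF3 and SRSF7 are SR proteins, splicing factors that also take part in export. SRSF1 had 75.8% of its reads in non-coding types and was led by the retained-intron transcript SRSF1-202 (40.7%). SRSF3 had 26.7%, of which the decay transcript SRSF3-203 held 21.1%, and SRSF7 had 8.69%. YTHDC1 itself had a sum of 55488 with 0.390% in non-coding types. Reads of the introduced construct cannot be told apart from those of the endogenous gene in that sum or in that share. Neither value therefore describes the endogenous gene alone.

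**Figure D4:**
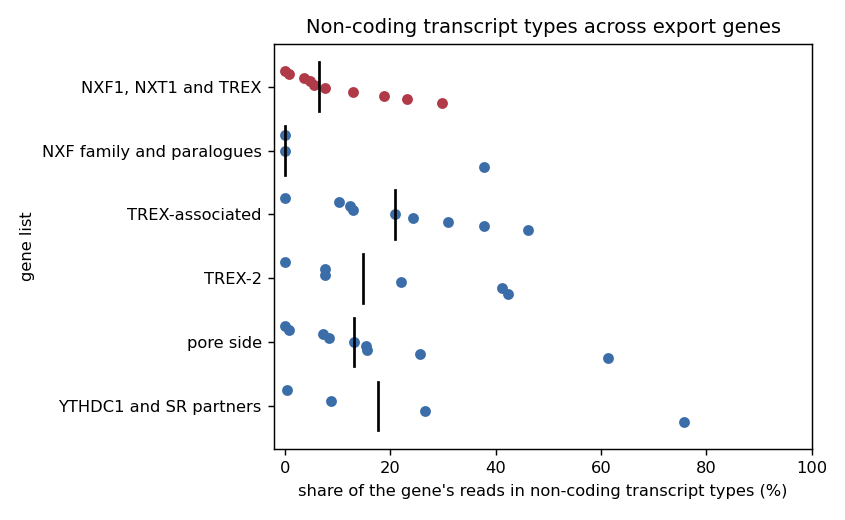
Share of each gene's reads in non-coding transcript types (x axis, %) for NXF1, NXT1 and TREX (10 genes), 4 lists of other export factors and YTHDC1 with its SR partners (y axis), with 1 point per listed gene and a black bar at the median of each list; vertical offsets only separate points. The median of NXF1, NXT1 and TREX is 6.51%, and SRSF1 (75.8%) and NUP42 (61.3%) are the points farthest to the right. Reads of the introduced construct cannot be told apart in the YTHDC1 point.

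Neighbouring genes limit some of these values. By RefSeq positions, 14 genes overlapped one of the 10, and 4 of these were listed. ANAPC11 lies on the strand opposite to ALYREF and shares 798 bases with it, USP14 shares 110 bases with THOC1, and HCFC1R1 shares 252 bases with THOC6, each from the opposite strand. ATXN7 shares 1341 bases with the THOC7 locus. The libraries were made from rRNA-depleted RNA with a kit that keeps strand, but whether the counting used strand is not given in the sources used here. If it did not, reads in the shared bases of opposite-strand genes cannot be told apart. The readthrough gene ATP6V1G2-DDX39B covers DDX39B over 11778 bases on the same strand and was not listed. The small nucleolar RNA genes SNORD117 and SNORD84, which share 76 and 78 bases with DDX39B, were not listed either.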

How the data were processed

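RIP-seq libraries of MDA-MB-231 cells (2 IP, 2 input) were grouped by their labels. Per the study's methods, RNA was depleted of rRNA and libraries were made with a stranded kit. Per the study's methods and the submitters' processing notes, reads were mapped with STAR (2.7.2b) to a GENCODE transcriptome on GRCh38 and transcript reads were estimated with RSEM (1.2.31). Transcripts were removed unless they reached a minimum read count in a set part of the libraries. A transcript could therefore be listed through the 2 IP or the 2 input libraries alone. Batch effects were corrected with RUVSeq, and the authors compared groups with DESeq2. How the correction entered the mean is not given in the sources used here. The deposited table holds 1 signal value per transcript, the mean normalized count over all 4 libraries, made by the authors. Its 4 comparison columns (log2 fold change, standard error, p-value and adjusted p-value) hold the authors' own results and were not used. The table has no value per library, so the planned test of IP against input on counts was not run, and depth is unknown.

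Shares were computed within each Ensembl gene identifier with python 3.11.15, numpy 2.4.6 and pandas 2.3.3, plotted with matplotlib 3.10.9 and tested on simulated data. Genes were compared with protein-coding genes having the same number of listed transcripts. The text names, for each of the 10 genes, its 3 most abundant transcripts and any non-coding transcript with at least 5% of the reads. A few others were named after their values were seen. Other genes come from lists of export factors, SR partners and markers. The genes and lists were chosen with earlier results of these data known. RefSeq tables (GRCh38.p14) gave positions for all 10 genes. Alternatives were a floor of 10 or 100 on the mean normalized count, only protein-coding transcripts, equal weight per gene, matching by gene identifier and, added after the data were seen, leaving out DDX39B.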

Additional observations from a re-analysis of the deposited data

How the results depend on the processing

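The number of listed transcripts of the 10 export genes was 67, also when matched by gene identifier, 56 when a mean normalized count of 10 or more was required and 33 when 100 or more was required. The share of their reads in non-coding types, 15.5%, was 15.2% and 14.6% under these minimums. It was 6.51% as the median of the genes' own shares and 7.49% without DDX39B, an alternative chosen after seeing the data, so a single gene sets the summed share. The median leading share, 51.5%, was 52.0% and 63.8% under the minimums and 70.0% among protein-coding transcripts alone. Fewer transcripts remain under each of these settings, which raises a leading share by construction. The change was widest for THOC1, from 56.4% to 78.3% at a minimum of 100, and for DDX39B, from 46.7% to 66.5% among protein-coding transcripts alone.

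No paired analysis was possible because the deposited table gives no value per library. For the same reason the test of IP against input, its alternatives and leaving out each replicate were not run. Depth and replicate spread are unknown, so none of these shares has an error.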
